A study of Homo sapiens with 4 samples.

Results

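The 34 genes described here belong to the endoplasmic reticulum (ER) stress response and to the amino acid response, and they were taken by symbol from the 27685 genes of the deposited transcript tables, with the transcripts of each gene summed. They comprised 14 ER chaperones and folding enzymes, 4 genes of ER-associated degradation, 4 genes for the ER stress sensors and XBP1, 4 for ATF4 and the transcription factors beside it, 5 for ATF4 targets and feedback regulators, and 3 amino acid synthesis enzymes. RNA was sequenced from HT-29 cells, a human colorectal adenocarcinoma line, that carried either a control vector or N-terminally Myc-tagged TRIM40, a RING-type ubiquitin ligase of the tripartite motif family. Both kinds of cell were otherwise untreated wild-type HT-29 cells, made stable by retroviral transduction and puromycin selection, and the sources used here do not say which promoter drove TRIM40 or whether the lines were clones. Each of the 2 independent experiments gave 1 control vector library and 1 Myc-TRIM40 library, so that every comparison within an experiment sets 1 library against 1 library. The 34 genes were compared between Myc-TRIM40 and control vector to ask how far these 2 responses differed when TRIM40 was present.

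Cells sense unfolded protein in the ER through 3 membrane proteins. IRE1 (encoded by ERN1) splices XBP1 mRNA into the form that encodes an active transcription factor, ATF6 is cut to release one, and PERK (encoded by EIF2AK3) phosphorylates the translation factor eIF2. XBP1 and ATF6 chiefly raise chaperones and degradation genes, whereas phosphorylated eIF2, which is also produced on amino acid shortage, favours translation of ATF4, whose targets include DDIT3, CHAC1, TRIB3, SESN2 and ASNS. The secretory cells of the intestinal epithelium depend heavily on this response.

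The DNA elements through which these arms are known to act were looked for in the RefSeq promoters of the GRCh38.p14 assembly. The search ran from 250 bases before to 50 bases after each gene start, on both strands. The searched letters were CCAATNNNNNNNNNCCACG for the ER stress element, TGACGTGG for the UPR element and TGATGNAA for the CEBP-ATF response element. In the windows that follow, which are written 5′ to 3′ on the strand of the match, capitals mark the matched element.
HSPA5, ER stress element, chr9:125241376-125241424, minus strand: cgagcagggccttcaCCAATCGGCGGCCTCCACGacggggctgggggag
CALR, ER stress element, chr19:12938369-12938417, minus strand: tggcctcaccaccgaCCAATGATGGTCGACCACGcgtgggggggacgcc
XBP1, ER stress element, chr22:28800588-28800636, minus strand: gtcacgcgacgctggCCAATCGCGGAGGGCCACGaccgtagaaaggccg
HYOU1, UPR element, chr11:119057371-119057408, minus strand: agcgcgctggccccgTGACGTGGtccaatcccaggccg
ATF3, CEBP-ATF response element, chr1:212565201-212565238, plus strand: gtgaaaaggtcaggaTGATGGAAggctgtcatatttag
CHAC1, CEBP-ATF response element, chr15:40953247-40953284, minus strand: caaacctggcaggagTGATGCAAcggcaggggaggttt
ASNS, CEBP-ATF response element, chr7:97872454-97872491, minus strand: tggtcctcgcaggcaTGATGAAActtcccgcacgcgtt

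A promoter was matched for 33 of the 34 genes. The ER stress element was found in 7 of the 33 (21.2%, namely HSPA5, HSP90B1, CALR, CANX, PDIA6, CRELD2 and XBP1), against 25 of 27305 promoters in all (0.0916%). HSP90B1 held it at 2 places. The CEBP-ATF response element was found in 4 of the 33 (12.1%, HERPUD1, ATF3, CHAC1 and ASNS), against 4.46% of all promoters, and the UPR element in HYOU1 alone (3.03%), against 0.927%. No promoter among these genes held 2 kinds of element, and a match of letters is not evidence that a factor is bound there. The search used the gene start only. ATF3 has 6 listed transcripts, so the start of its most-read transcript may lie elsewhere.

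The libraries held between 60954602 and 67424698 reads assigned to genes. TRIM40 had 0 reads in both control vector libraries, and with Myc-TRIM40 it had 272646 reads in experiment 1 and 110665 reads in experiment 2. Of 10 colon epithelium markers, 9 were at 1 FPKM or more (fragments scaled by transcript length and library total) in all 4 libraries, CDX1 being the exception. Their summed level was between 6829 and 9402 FPKM. Of 10 markers of other cell types, 9 were below 1 FPKM in every library and 5 were at 0 throughout, with a summed level between 6.23 and 13.0 FPKM that came mostly from the macrophage marker CD68. In bulk RNA, fewer cells of a type and less RNA per cell cannot be told apart.

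In experiment 1 the ATF4-linked genes ATF3, DDIT3, PPP1R15A and CHAC1 were between 2.22-fold and 4.89-fold higher in Myc-TRIM40 than in control vector cells, on the scale of FPKM + 1, which understates the change of low genes. In experiment 2 none of these 4 was as much as 1.5-fold higher, and DDIT3 was lower. Of the 14 chaperones and folding enzymes, 1 was past 1.5-fold in experiment 1 (DNAJB9, higher) and 1 in experiment 2 (SDF2L1, lower). Only CEBPB and ERN1 were past 1.5-fold in the same direction in both, and none of the 34 genes passed the test across both experiments.

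In experiment 1, 12 of the 34 genes were at least 1.5-fold higher and 0 were at least 1.5-fold lower. Of the 11801 genes with a mean of at least 1 FPKM, which include all 34, 3.01% were past 1.5-fold higher and 0.822% lower in that experiment. Of all 27685 genes, the shares were 1.66% and 0.466%. In experiment 2, 2 of the 34 were higher (CEBPB and ERN1) and 2 lower (DDIT3 and SDF2L1), beside 10.7% and 3.42% of the 11801 genes and 4.71% and 1.59% of all genes. The 2 genes past 1.5-fold the same way in both experiments stand beside 0.678% of the 11801 genes and 0.311% of all genes. Expressed as TPM, which rescales each library to the same sum, experiment 2 had 7 genes past 1.5-fold higher and 1 lower. The median log2 ratio over the 11801 genes in that experiment was 0.10 in FPKM + 1 and 0.33 in TPM + 1, so its ratios are best read relative to that shift. In FPKM as deposited, 15 of the 34 genes were higher in both experiments, 17 were higher in experiment 1 and lower in experiment 2, HYOU1 went the opposite way, and ATF4 was lower in both. The share with opposite signs in the 2 experiments was 52.9% of the 34 genes, beside 44.6% of the 11801 genes. Under 5 scalings (FPKM, FPKM centred on the median gene, TPM, edgeR's TMM and the ratios after a length trend was taken out), 29 genes were above 0 under all of them in experiment 1, but 10 were in experiment 2, where 8 others were below 0 under all and the rest changed sign with the scaling. Some of these ratios were close to 0, such as ATF4 in experiment 2 at -0.04 with the length trend taken out. The counts over scalings were not made for the 11801 genes.

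**Figure D1:**
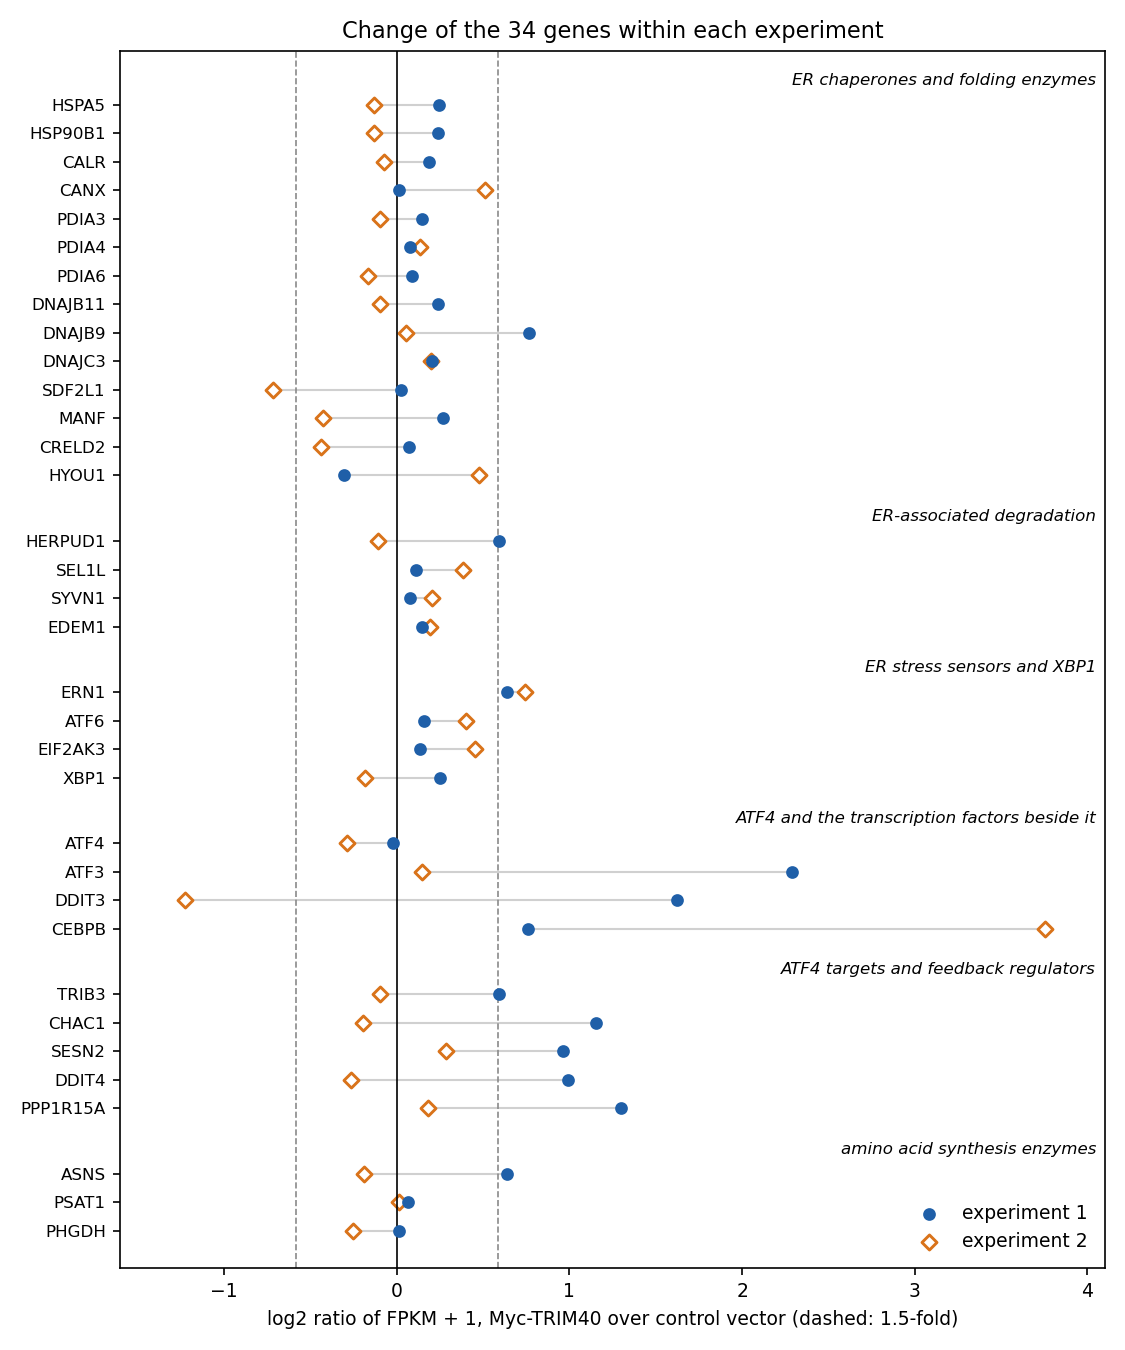
Log2 ratio of FPKM + 1 in Myc-TRIM40 over control vector (horizontal axis) for each of the 34 genes, grouped by role, with filled circles for experiment 1, open diamonds for experiment 2 and dashed lines at 1.5-fold. In experiment 1, 12 genes lie to the right of the upper dashed line and 0 to the left of the lower one, and only CEBPB and ERN1 lie beyond the upper line in both experiments.

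Among the 14 ER chaperones and folding enzymes, the members with the highest levels differed little between Myc-TRIM40 and control cells. HSPA5 (BiP), the main ER Hsp70 chaperone, was at 144 FPKM in control and 171 FPKM in Myc-TRIM40 cells of experiment 1, and at 206 and 188 FPKM in experiment 2. HSP90B1 (GRP94), the ER form of Hsp90, was at 272 and 322 FPKM and then at 458 and 417 FPKM. Calreticulin, CALR, was at 364 and 415 FPKM and then at 365 and 347 FPKM. Each of the 3 was thus slightly higher with Myc-TRIM40 in experiment 1 and slightly lower in experiment 2. In TPM the experiment 2 ratios were 0.11, 0.10 and 0.16 on the log2 scale, above 0 but below the median of 0.33 over the 11801 genes. The controls of the 2 experiments differed by 0.51 (HSPA5) and 0.75 (HSP90B1) on the log2 scale of FPKM + 1, more than either gene differed between Myc-TRIM40 and control.

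The oxidoreductases that form disulfide bonds behaved alike in size. PDIA3 was at 283 and 313 FPKM in control and Myc-TRIM40 cells of experiment 1 and at 404 and 378 FPKM in experiment 2. PDIA6 was at 203 and 217 FPKM and then at 308 and 274 FPKM, and PDIA4 at 189 and 199 FPKM and then at 184 and 203 FPKM. For PDIA4, both Myc-TRIM40 libraries lay above both controls, though its log2 ratios of FPKM + 1 were 0.08 and 0.14.

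In FPKM as deposited, the lectin chaperone CANX (calnexin) and the Hsp70-like HYOU1 differed more in experiment 2 than in experiment 1. CANX was at 148 and 149 FPKM in experiment 1 and at 128 and 182 FPKM in experiment 2. HYOU1 was at 78.7 FPKM in control and 63.5 FPKM in Myc-TRIM40 cells of experiment 1, but at 48.1 and 67.4 FPKM in experiment 2. Myc-TRIM40 cells were thus lower in HYOU1 in the first experiment and higher in the second, under all 5 scalings. With the length trend taken out, the log2 ratios of CANX were -0.02 and 0.15 in experiments 1 and 2. Those of HYOU1 were -0.33 and 0.15, so that HYOU1 then differed less in experiment 2.

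The J-domain co-chaperones were at lower levels. DNAJB9 (ERdj4), a known target of spliced XBP1, was at 2.14 FPKM in control and 4.35 FPKM in Myc-TRIM40 cells of experiment 1 (1.70-fold), and at 5.07 and 5.30 FPKM in experiment 2. Its higher Myc-TRIM40 value in experiment 1 was below both libraries of experiment 2. DNAJC3, which binds PERK and unfolded proteins, was at 10.5 and 12.3 FPKM and then at 12.2 and 14.2 FPKM. Its Myc-TRIM40 level in experiment 1 (12.26 FPKM) was barely above the control of experiment 2 (12.21 FPKM). With the length trend taken out, the experiment 2 ratio of DNAJC3 was -0.21 on the log2 scale. DNAJB11 was at 54.6 and 64.6 FPKM and then at 87.7 and 81.9 FPKM.

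The small luminal proteins SDF2L1, MANF and CRELD2 were level or slightly higher in experiment 1 and lower in experiment 2. SDF2L1 was at 28.9 and 29.4 FPKM in control and Myc-TRIM40 cells of experiment 1 and at 39.5 and 23.7 FPKM in experiment 2, where its ratio of 0.61 passed 1.5-fold. MANF, a secreted ER stress protein, was at 50.4 and 60.9 FPKM and then at 91.5 and 68.0 FPKM. CRELD2 was at 20.1 and 21.1 FPKM and then at 25.4 and 18.5 FPKM. In experiment 2 all 3 were below 0 under each of the 5 scalings. Their size depended on the scaling, and with the length trend taken out they were at -0.30 (SDF2L1), -0.03 (MANF) and -0.20 (CRELD2) on the log2 scale. They are among the genes with the shortest transcripts in this set, and transcript length moved with the ratios of experiment 2, as described at the end of the results.

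In the ER-associated degradation genes, which return misfolded proteins to the cytosol, HERPUD1 differed most in experiment 1. In FPKM as deposited it differed least in experiment 2, which depended on the scaling. Centred on the median gene, its log2 ratio there was -0.21, beside 0.10 for SYVN1, 0.09 for EDEM1 and 0.28 for SEL1L. HERPUD1 was at 19.9 FPKM in control and 30.4 FPKM in Myc-TRIM40 cells of experiment 1, just past the threshold at 1.51-fold, and at 22.6 and 20.9 FPKM in experiment 2. Its log2 ratio in experiment 1 was 0.58 after centring, TMM or removal of the length trend, just inside 1.5-fold. SEL1L, the adaptor of the HRD1 ligase, was at 6.02 and 6.59 FPKM and then at 5.09 and 6.93 FPKM. SYVN1, which encodes the HRD1 ligase itself, was at 29.1 and 30.8 FPKM and then at 19.6 and 22.8 FPKM, and EDEM1, a mannosidase-like protein, was at 5.02 and 5.67 FPKM and then at 4.62 and 5.42 FPKM. Both Myc-TRIM40 libraries lay above both controls for SEL1L and EDEM1, but after the length trend was taken out their experiment 2 ratios were -0.14 and -0.25 on the log2 scale.

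Among the sensors, ERN1 was higher with Myc-TRIM40 in both experiments. It was at 1.99 FPKM in control and 3.67 FPKM in Myc-TRIM40 cells of experiment 1 (500 and 921 reads), and at 0.320 and 1.21 FPKM in experiment 2 (89 and 311 reads). The ratios of FPKM + 1 were 1.56 and 1.67, yet the Myc-TRIM40 level of experiment 2 was below the control level of experiment 1. The edgeR log2 fold change of ERN1 was 1.29 with a standard error of 0.29, and its p of 0.00178 became 0.442 after Benjamini-Hochberg adjustment over all genes tested. With the length trend taken out, its experiment 2 ratio of FPKM + 1 was 0.48 on the log2 scale, no longer past 1.5-fold. FPKM + 1 understates the change of a gene this low, and in TMM-normalized reads its experiment 2 log2 ratio was 1.77. In the edgeR fit with the length trend taken out, its log2 fold change was 1.17 (Benjamini-Hochberg adjusted p = 0.841). ATF6 was at 7.36 and 8.34 FPKM and then at 6.36 and 8.70 FPKM, and EIF2AK3 at 4.44 and 4.97 FPKM and then at 3.07 and 4.58 FPKM. Neither passed 1.5-fold in either experiment, although both had their Myc-TRIM40 libraries above both controls. With the length trend taken out, their experiment 2 ratios were -0.11 and 0.12 on the log2 scale.

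XBP1 was at 109 FPKM in control and 130 FPKM in Myc-TRIM40 cells of experiment 1, and at 158 and 139 FPKM in experiment 2. IRE1 activity is read more directly from the form of this mRNA, and the tables list the unspliced and the spliced RefSeq transcript separately. The spliced transcript took 389 of 12444 XBP1 reads in the control of experiment 1 (3.13%, 95% Wilson interval 2.83% to 3.45%) and, with Myc-TRIM40, 689 of 14867 reads (4.63%, 4.31% to 4.98%). In experiment 2 it took 1363 of 19957 reads in the control (6.83%, 6.49% to 7.19%) and 887 of 16227 reads with Myc-TRIM40 (5.47%, 5.13% to 5.83%). The share was therefore 1.51 percentage points higher with Myc-TRIM40 in experiment 1 and 1.36 percentage points lower in experiment 2 (-1.36), and the controls differed from each other by 3.70 points. The intervals cover counting error only. Since the 2 forms differ by a short intron, reads that do not reach it fit both, and the split rests on the authors' estimate for each transcript.

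**Figure D2:**
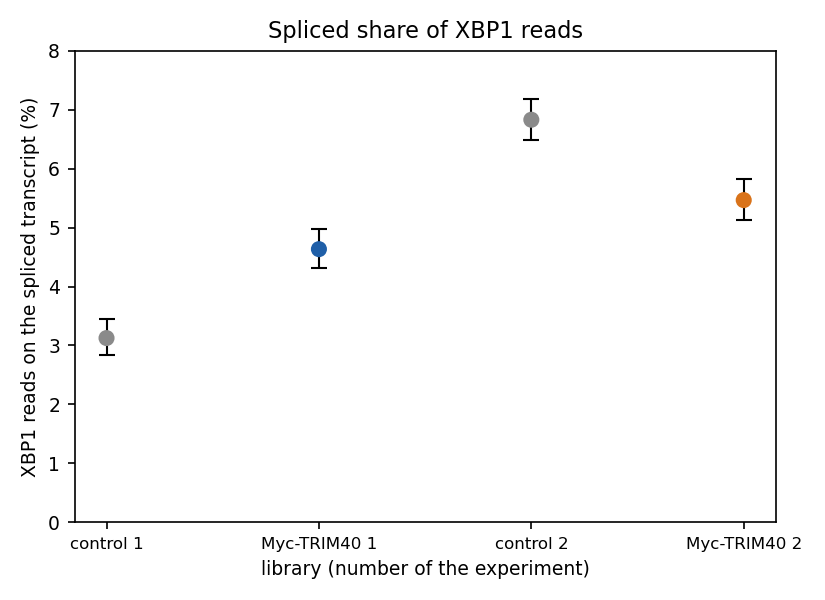
Share of XBP1 reads assigned to the spliced transcript (vertical axis, percent) in each of the 4 libraries, numbered by experiment, with bars for the 95% Wilson interval of counting error. The share is higher in Myc-TRIM40 than in control in experiment 1 (4.63% against 3.13%) and lower in experiment 2 (5.47% against 6.83%).

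ATF4, which is regulated mainly at translation, was measured here only as mRNA. It was at 227 FPKM in control and 223 FPKM in Myc-TRIM40 cells of experiment 1, and at 268 and 220 FPKM in experiment 2. It was the only one of the 34 genes whose Myc-TRIM40 libraries both lay below both controls, beside 6.74% of the 11801 genes. In TPM its experiment 1 ratio was 0.01 on the log2 scale, beside a median of 0.04 over the 11801 genes. Its edgeR log2 fold change was -0.24 with a standard error of 0.21 (Benjamini-Hochberg adjusted p = 0.888).

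ATF3 (hg19 chr1:212738676-212794119), a stress-induced factor downstream of ATF4, differed most of the 34 genes in experiment 1. It was at 2.19 FPKM in control and 14.6 FPKM in Myc-TRIM40 cells (286 and 1894 reads), and at 2.04 and 2.36 FPKM in experiment 2 (295 and 317 reads). The single Myc-TRIM40 library of experiment 1 stood apart from 3 others that were nearly level. In that library 230 of the 1894 reads were assigned to a shorter transcript of 2035 bases, which had 0 reads in both controls and 2 in the other Myc-TRIM40 library. Across both experiments the edgeR log2 fold change was 1.41 with a standard error of 0.54 (Benjamini-Hochberg adjusted p = 0.888).

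DDIT3 (CHOP; hg19 chr12:57910371-57914300), the factor linked to cell death under ER stress, went opposite ways. It was at 7.21 FPKM in control and 24.3 FPKM in Myc-TRIM40 cells of experiment 1 (452 and 1462 reads), and at 10.8 and 4.06 FPKM in experiment 2 (743 and 258 reads). The log2 ratios of FPKM + 1 were 1.62 and -1.23, which makes DDIT3 the only one of the 34 genes past 1.5-fold in opposite directions. Both directions held under all 5 scalings, the experiment 2 ratio being -0.84 with the length trend taken out. The edgeR log2 fold change across both was 0.08 with a standard error of 0.66 (Benjamini-Hochberg adjusted p = 0.994). DDIT3 overlaps MARS, which had between 12083 and 15929 reads, and whether strand was used in counting is not given in the sources used here.

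CEBPB (hg19 chr20:48807120-48809227), a leucine zipper factor that can pair with ATF4, differed most in experiment 2. It was at 21.6 FPKM in control and 37.2 FPKM in Myc-TRIM40 cells of experiment 1 (2849 and 4925 reads), and at 1.21 and 28.9 FPKM in experiment 2 (179 and 3906 reads). The control library of experiment 2 was the low one, and the other 3 libraries lay between 21.6 and 37.2 FPKM. The ratio of FPKM + 1 was 1.69 in experiment 1 and 13.5 in experiment 2. The edgeR log2 fold change was 2.54 with a standard error of 0.78 (Benjamini-Hochberg adjusted p = 0.888). The 3 CEBPB transcripts have the same length of 2108 bases and shared the reads about evenly in 3 libraries, whereas in the Myc-TRIM40 library of experiment 2 all 3906 reads were assigned to 1 of them.

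The ATF4 targets and feedback regulators were all past 1.5-fold higher in experiment 1 (5 of 5 in FPKM as deposited), and 0 of 5 were past 1.5-fold in experiment 2. PPP1R15A (GADD34), which directs the dephosphorylation of eIF2, was at 19.4 FPKM in control and 49.3 FPKM in Myc-TRIM40 cells of experiment 1, and at 19.9 and 22.7 FPKM in experiment 2. CHAC1, which degrades glutathione, was at 2.25 and 6.22 FPKM and then at 1.67 and 1.33 FPKM. SESN2, a leucine sensor that restrains mTORC1, was at 4.93 and 10.6 FPKM and then at 3.45 and 4.42 FPKM. For PPP1R15A, SESN2 and CHAC1 alike, the Myc-TRIM40 library of experiment 1 was the highest of the 4, and the ratios of FPKM + 1 in experiment 2 were 1.14, 1.22 and 0.87. DDIT4 (REDD1), another brake on mTORC1, was at 11.4 and 23.7 FPKM and then at 12.9 and 10.6 FPKM. TRIB3, a pseudokinase that restrains ATF4 and DDIT3, was at 32.2 and 48.9 FPKM, just past the threshold at 1.51-fold, and then at 30.9 and 28.8 FPKM. Its log2 ratio in experiment 1 was 0.58 after centring, TMM or removal of the length trend, just inside 1.5-fold, which leaves 4 of the 5 genes past it. In experiment 2 CHAC1 and DDIT4 were below 0 and PPP1R15A and SESN2 above 0 under all 5 scalings, while the sign of TRIB3 depended on the scaling. Some of these log2 ratios were close to 0. CHAC1 was at -0.07 and DDIT4 at -0.05 in TPM, PPP1R15A at 0.07 in TMM and SESN2 at 0.08 with the length trend taken out. For all 5 genes the change in experiment 1 was larger than the difference between the 2 controls, which held for 13 of the 34 genes and for 19.5% of the 11801.

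**Figure D3:**
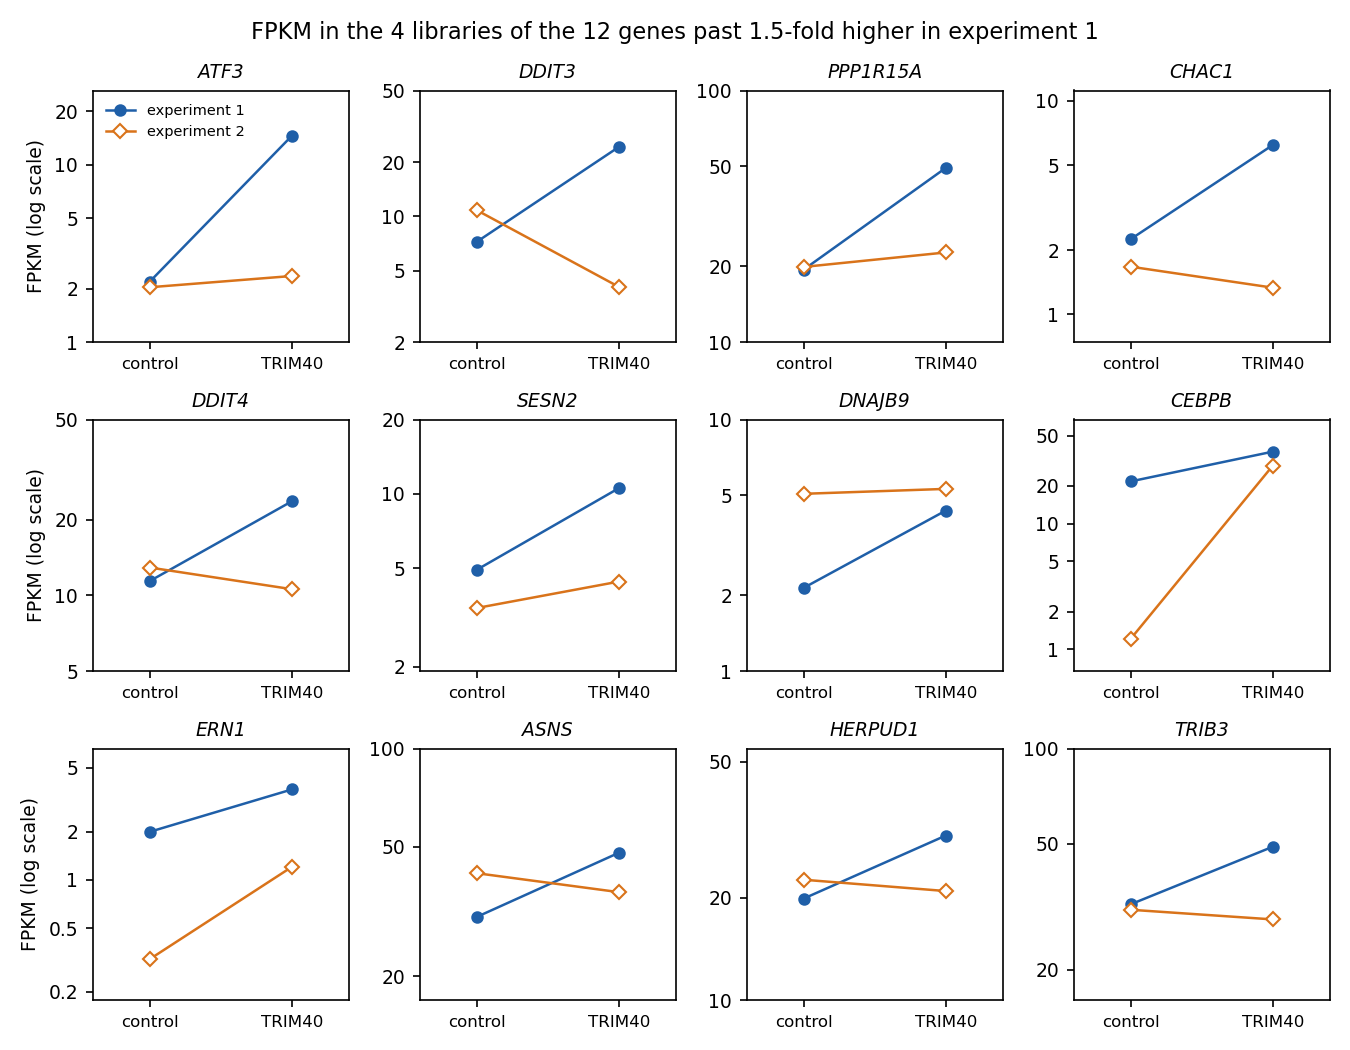
FPKM (vertical axes, log scale, a separate range for each gene) in the control vector and Myc-TRIM40 libraries of the 12 genes past 1.5-fold higher in experiment 1, with lines that join the 2 libraries of an experiment. The Myc-TRIM40 library of experiment 1 is the highest of the 4 for every gene but DNAJB9, and the lines of experiment 2 are close to level for most genes, climb for CEBPB and ERN1 and descend for DDIT3.

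Of the 3 amino acid synthesis enzymes, asparagine synthetase (ASNS) was past 1.5-fold in experiment 1. ASNS was at 30.4 FPKM in control and 47.9 FPKM in Myc-TRIM40 cells of experiment 1, and at 41.4 and 36.2 FPKM in experiment 2. PHGDH, which opens the serine pathway, was at 28.3 and 28.6 FPKM and then at 29.6 and 24.7 FPKM. PSAT1, the following enzyme of that pathway, was at 44.1 and 46.2 FPKM and then at 67.8 and 68.3 FPKM. The difference between the PSAT1 controls, 0.61 on the log2 scale of FPKM + 1, was larger than either change with Myc-TRIM40.

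In the fit across both experiments, the quasi-likelihood test of edgeR, adjusted by Benjamini-Hochberg over 14868 genes, called 0 of the 34 genes higher and 0 lower, beside 0.0404% and 0.0202% of all genes tested. Adjusted p ranged from 0.442 to 0.998. At an unadjusted p under 0.05, 4 of the 34 were counted (ERN1, CEBPB, ATF3 and SESN2, all higher), beside 4.54% of the genes tested. DESeq2 and limma called 0 of the 34 after adjustment as well. At an unadjusted p under 0.05, DESeq2 counted 4 of the 34, beside 353 genes higher and 189 lower of the 14868. For limma the count was 5, beside 587 and 134. It was 3 with upper-quartile normalization (417 and 140), 1 with the length trend taken out (337 and 295) and 0 without the block (128 and 25). Without a filter it was 1, beside 343 and 104 of 18561 genes. The median edgeR log2 fold change was 0.10 for the 34 genes and 0.04 for all genes tested. A single value compared in 2 against 2 libraries cannot give a two-sided exact permutation p below 0.333. Both Myc-TRIM40 libraries lay above both controls in FPKM for 10 of the 34 (CANX, PDIA4, DNAJC3, SEL1L, EDEM1, ATF6, EIF2AK3, ATF3, CEBPB and PPP1R15A), beside 12.8% of the 11801 genes.

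The difference between the 2 control libraries was as large for these genes as for others. The median absolute log2 ratio of the controls, in FPKM + 1, was 0.42 for the 34 genes and 0.41 for the 11801. The corresponding median change with Myc-TRIM40 among the 34 genes was 0.24 in experiment 1 and 0.20 in experiment 2. Between the ratios of experiments 1 and 2, Spearman's rho was -0.05 over the 34 genes and 0.11 over the 11801, which are descriptions across genes within the same 4 libraries.

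Transcript length moved with the ratios of experiment 2. Over the 34 genes, the log2 ratio of experiment 2 had a Spearman correlation with transcript length of 0.80, and over the 11801 genes it was 0.69. In experiment 1 the values were -0.18 and 0.08. For the control of experiment 2 over the control of experiment 1, they were -0.48 and -0.55. The median log2 ratio in experiment 2 ran from -0.41 in the shortest of 10 equal length groups to 0.54 in the longest. DDIT3, at a mean of 973 bases, and SDF2L1, at 874 bases, are short, and ERN1, at 4005 bases, is long. With the length trend taken out of the ratios of FPKM + 1, SDF2L1 was at -0.30 and ERN1 at 0.48 in experiment 2, both within 1.5-fold. CEBPB at 3.81 and DDIT3 at -0.84 remained past 1.5-fold. For ERN1, at 0.320 FPKM in the control of experiment 2, FPKM + 1 understates the change. In the edgeR fit on reads with the length trend taken out, the log2 fold change of ERN1 was 1.17. The part of length in the other differences was not tested.

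**Figure D4:**
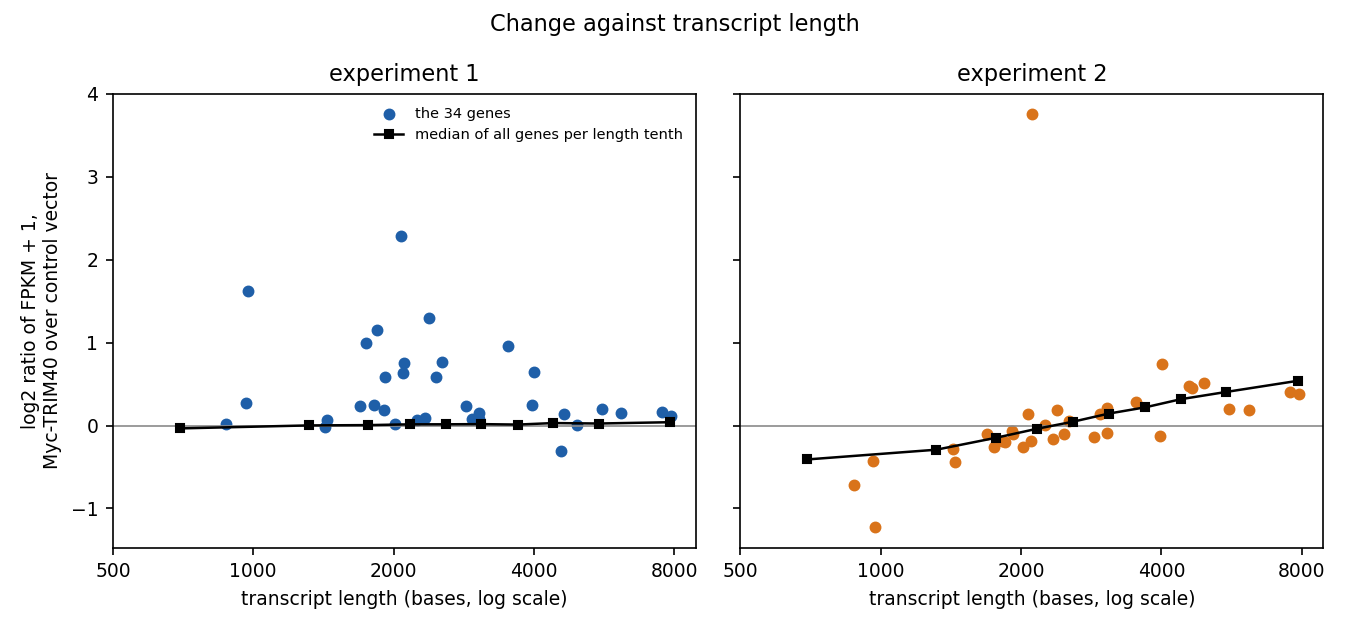
Log2 ratio of FPKM + 1 in Myc-TRIM40 over control vector (vertical axis) against transcript length in bases (horizontal axis, log scale) for the 34 genes (circles) and for the medians of 10 equal length groups of the 11801 genes (squares joined by a line), in each experiment. The line is close to 0 at every length in experiment 1 and climbs from -0.41 to 0.54 in experiment 2, where the ratios of the 34 genes also climb with length (Spearman correlation 0.80).

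Set beside the promoter elements shown above, the 7 genes with an ER stress element had log2 ratios of FPKM + 1 between 0.01 (CANX) and 0.25 (XBP1) in experiment 1, and between -0.44 (CRELD2) and 0.51 (CANX) in experiment 2. In FPKM as deposited, the 4 genes with a CEBP-ATF response element were all past 1.5-fold higher in experiment 1. Their log2 ratios were 0.59 (HERPUD1), 0.64 (ASNS), 1.15 (CHAC1) and 2.29 (ATF3), and in experiment 2 they were -0.11, -0.19, -0.20 and 0.15. Beside this count stand 3.01% of the 11801 genes, and the share among all genes with the element was not computed. HERPUD1 was just inside 1.5-fold in experiment 1 after centring, TMM or removal of the length trend. Whether the ATF3 element lies before its most-read transcript was not checked. HYOU1, with the UPR element, was at -0.30 in experiment 1 and 0.48 in experiment 2. Genes with no CEBP-ATF response element in the window, among them DDIT3, PPP1R15A, SESN2 and DDIT4, were also past 1.5-fold in experiment 1.

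A further 104 genes of the same pathways, all of them found in the tables, gave a wider view. Of these, 101 were tested and 0 passed the edgeR test after Benjamini-Hochberg adjustment in either direction, with 6 at an unadjusted p under 0.05. In experiment 1, 6 of the 104 were past 1.5-fold higher and 1 lower, and in experiment 2, 11 were higher and 2 lower. Beside these stand 3.01% and 0.822% of the 11801 genes in experiment 1 and 10.7% and 3.42% in experiment 2. The share of the 104 genes in experiment 2 was thus near that of the 11801 genes for higher values and below it for lower ones. The same shares stand beside the counts of each list that follows. The 14 other ATF4-linked transcription factors and stress genes held 4 of the 6 in experiment 1, and their median log2 ratio of FPKM + 1 was 0.29 in experiment 1 and 0.07 in experiment 2, beside 0.01 and 0.10 for the 11801 genes. The p53 and CHOP target BBC3 (PUMA), a promoter of apoptosis, had the highest ratio of that list in experiment 1, with 1.81 FPKM in control and 9.73 FPKM in Myc-TRIM40 cells of experiment 1, but 6.12 and 5.45 FPKM in experiment 2. The death receptor TNFRSF10B had the highest ratio in experiment 2, with 9.13 and 13.5 FPKM, beside 15.6 and 20.03 FPKM in experiment 1. EIF4EBP1, which blocks cap-dependent translation when it is not phosphorylated, had the lowest in both experiments, with 37.0 and 35.1 FPKM and then 55.4 and 36.0 FPKM.

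Among the 13 genes of eIF2 kinases, eIF2 and eIF2B subunits and phosphatase subunits, the interferon-inducible kinase EIF2AK2 (PKR) was the only pathway gene past 1.5-fold the same way in both experiments. EIF2AK2 was at 10.9 FPKM in control and 35.5 FPKM in Myc-TRIM40 cells of experiment 1, and at 5.97 and 13.5 FPKM in experiment 2. Its edgeR log2 fold change was 1.37 with a standard error of 0.24 and a Benjamini-Hochberg adjusted p of 0.174. DESeq2 alone gave a low adjusted p, of 1.88e-04. The adjusted p of EIF2AK2 was 0.559 by limma and 0.496 in edgeR with upper-quartile normalization. In edgeR it was 0.804 without a filter, 0.841 with the length trend taken out and 0.9998 without the block. The haem-regulated kinase EIF2AK1 went opposite ways, with 64.9 and 40.5 FPKM in experiment 1 and 21.3 and 40.7 FPKM in experiment 2. The kinase activated by amino acid shortage, EIF2AK4 (GCN2), was at 6.89 and 8.24 FPKM and then at 4.62 and 7.93 FPKM. The 4 eIF2 kinases, EIF2AK3 included, are known to converge on the same residue of eIF2, and EIF2AK2 alone was past 1.5-fold higher in experiment 1, whereas EIF2AK1, EIF2AK2 and EIF2AK4 were in experiment 2, at ratios of FPKM + 1 of 1.87, 2.08 and 1.59. The lowest ratio of this list in experiment 2 was that of EIF2B1, at 51.7 and 43.1 FPKM.

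Of the 36 ER folding, translocation and degradation genes outside the 34, 0 were past 1.5-fold in experiment 1, while experiment 2 had 4 higher and 1 lower. SEC24D, a coat protein of vesicles that leave the ER, had the highest ratio of FPKM + 1 of that list in experiment 1, with 7.86 FPKM in control and 12.2 FPKM in Myc-TRIM40 cells, and was at 4.43 and 6.72 FPKM in experiment 2. DERL1, a channel component of ER-associated degradation, had the highest in experiment 2, with 18.1 and 80.9 FPKM, beside 66.0 and 67.1 FPKM in experiment 1, so that its control of experiment 2 was the low library. The lowest ratios of the list were those of UGGT1, which checks glycoprotein folding, at 13.1 and 11.4 FPKM in experiment 1, and of the translocon subunit SEC61G at 188 and 117 FPKM in experiment 2.

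Of the 8 other ER stress transcription factors and proteases, 0 were past 1.5-fold in experiment 1 and 1 was higher in experiment 2. That gene was BHLHA15, a factor of secretory cells, with 2.35 and 2.25 FPKM in experiment 1 and 0.755 and 2.00 FPKM in experiment 2. CREB3L2, a membrane-bound factor related to ATF6, had the highest ratio in experiment 1, with 2.63 and 3.98 FPKM, and was at 2.34 and 3.02 FPKM in experiment 2. The lowest were ATF6B in experiment 1, at 54.4 and 50.8 FPKM, and CREB3 in experiment 2, at 17.8 and 16.0 FPKM.

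Of the 9 amino acid transporters, 0 were past 1.5-fold in experiment 1 and 2 were higher in experiment 2. The glycine transporter SLC6A9 had the highest ratio in experiment 1, at a low level of 0.327 and 0.814 FPKM, and was at 0.167 and 0.382 FPKM in experiment 2. Its edgeR log2 fold change was 1.16 with a standard error of 0.36 (Benjamini-Hochberg adjusted p = 0.888). The leucine transporter SLC7A5 had the highest ratio in experiment 2, with 48.8 and 80.7 FPKM, beside 116 and 124 FPKM in experiment 1. The lowest were SLC7A1 in experiment 1, at 71.8 and 70.6 FPKM, and SLC3A2 in experiment 2, at 121 and 101 FPKM.

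Of the 12 other amino acid and one-carbon enzymes, CTH, which makes cysteine, was the only one past 1.5-fold, with 1.44 and 2.88 FPKM in experiment 1 and 1.55 and 1.87 FPKM in experiment 2. The highest ratio of experiment 2 was that of ALDH18A1, at 54.0 and 63.4 FPKM, and the lowest were PYCR1 in experiment 1, at 94.4 and 80.0 FPKM, and PSPH in experiment 2, at 29.7 and 25.8 FPKM. The 12 cytosolic aminoacyl-tRNA synthetases had 0 genes past 1.5-fold in experiment 1 and 1 in experiment 2, namely IARS, for isoleucine, which was at 66.98 and 74.95 FPKM and then at 45.5 and 76.3 FPKM. WARS, for tryptophan, had the highest ratio in experiment 1, at 41.1 and 56.0 FPKM, and the lowest were LARS in experiment 1, at 41.6 and 39.0 FPKM, and SARS in experiment 2, at 76.1 and 72.7 FPKM. None of these pathway genes passed the edgeR test. The p-values throughout come from only 2 experiments. In the edgeR fit with the block, each gene's own spread had 1 residual degree of freedom. It was weighed with a spread shared across genes, which had a median of 7.44 prior degrees of freedom. The p-values of that fit therefore rest mostly on the shared spread. With so few experiments, the fold changes themselves are imprecise.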

How the data were processed

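Each of 2 RNA-seq experiments gave 1 control vector and 1 Myc-TRIM40 library of HT-29 cells, prepared with a stranded mRNA kit and read on a NovaSeq system. The authors deposited, per RefSeq transcript, an estimated count of reads as whole numbers, not normalized, and FPKM, the count scaled by length and library total. For experiment 2 they also deposited TPM, and for experiment 1 it was derived here from FPKM. The deposited tables also give transcript lengths in bases. The submitters' processing notes name HISAT2 2.1.0, StringTie 1.3.4d and hg19, without their order or settings. The 63714 transcripts were summed to 27685 genes.

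Reads were tested with edgeR 4.0.16 (glmQLFit and glmQLFTest under R 4.3.3), with TMM, Benjamini-Hochberg adjustment at 0.05 and a block for the experiment, in the 14868 genes that filterByExpr kept. Libraries were paired because each file holds the control and the Myc-TRIM40 library of 1 experiment, and deviations of same-numbered libraries correlated at 0.45. The fit left 1 residual degree of freedom, at a common dispersion of 0.0484. Within an experiment, ratios of FPKM + 1 were compared with a fold of 1.5 and no test. Totals were between 60954602 and 67424698 reads, and 2 experiments limit the precision. The fit was run on counts of 14826 genes simulated without a difference between experiments. It found 31 of 103 genes changed 2-fold and 93 of 97 changed 4-fold, and called 6 unchanged genes. Most 2-fold changes were thus missed there. Alternatives were no block, DESeq2 1.42.0, upper-quartile normalization, limma 3.58.1 on log2(FPKM + 1), no filter, each experiment left out, a pseudocount of 0.1, a mean FPKM minimum of 1, TPM, median-centred ratios, a fold of 2 and crossed pairing. Taking out a trend on transcript length was chosen after seeing the data, as was the comparison of 5 scalings.

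The 34 genes, the pathway lists and the tests were chosen with earlier results of these data known. All 34 are accounted for, and other pathway genes are named where they passed 1.5-fold the same way in both experiments, passed the test or held the highest or lowest ratio of FPKM + 1 of their list in an experiment. EIF2AK4 is named outside that rule, a choice made with its values in view. Of the 34, 7 overlap another gene with at least 10 reads (CEBPB, DDIT3, DNAJB9, HSP90B1, PDIA3, PDIA6 and SYVN1), and their counts are uncertain to that extent.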

Additional observations from a re-analysis of the deposited data

How the results depend on the processing

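Of the 34 genes, 0 were called higher and 0 lower by edgeR with the experiment as a block, without the replicate block, by DESeq2, by limma, with upper-quartile normalization, without a filter and with the length trend taken out, with adjusted p between 0.140 and 1.00 over these fits for ERN1, the lowest of the genes with p under 0.05. The counts over all genes moved more: 6 were called higher and 3 lower with the block, 0 and 0 without the block, 45 and 9 by DESeq2, 3 and 0 by limma, 0 and 0 without a filter, and 1 and 0 with the length trend taken out. The block changed no other call. The median log2 fold change of the 34 genes, 0.10 with both experiments, was -0.21 without replicate 1 and 0.20 without replicate 2, so its sign rests on experiment 1. Counts of tested calls could not be made with an experiment left out, since 1 library per condition then remains. A fold of 2 in place of 1.5 left 4 genes higher in experiment 1, 1 higher and 1 lower in experiment 2 and 0 the same way in both. TPM gave 7 higher and 1 lower in experiment 2. With the length trend taken out, 1 was higher and 1 lower in experiment 2 and 1 the same way in both. Crossed pairing of the libraries gave 0 the same way in both. The causes were not tested. A pseudocount of 0.1 and the minimum of 1 FPKM moved none of the counts of genes past 1.5-fold, and centring moved the count of 12 in experiment 1 to 10, without TRIB3 and HERPUD1. The spliced share of XBP1 differed by less than its interval between reads and FPKM.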
